A study of Mus musculus with 7 samples.

Results

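The genes described are 27 enzymes and regulators of cholesterol synthesis, taken by symbol from the 23282 entries of a deposited count table, in which all 27 have an entry. They comprise 18 enzymes that lead from acetyl-CoA to cholesterol, 7 regulators of the SREBP transcription factors, and 2 enzymes that supply acetyl-CoA. The counts come from adult C57BL/6 mice carrying glioblastoma, a malignant brain tumour. Sorting took the cells positive for tdTomato, a red fluorescent marker, and 1 library was made per mouse. The 3 libraries of the WT group came from mice of wild-type genotype and the 4 of the Fyn-KO group from mice labelled as knockouts of Fyn, a tyrosine kinase of the Src family. How the tumours were started, which cells lacked Fyn and which part of the gene was removed are points that the sources used here do not give. QuantSeq, the assay used, sequences 1 tag near the 3' end of each polyadenylated RNA, so a gene's count does not grow with transcript length.

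Cholesterol is built in the cytosol and endoplasmic reticulum. Acetyl-CoA is condensed to mevalonate, mevalonate is turned into isoprenoid diphosphates, these are joined into squalene, and squalene is closed into lanosterol and trimmed to cholesterol. The SREBP proteins are transcription factors held in the membrane of the endoplasmic reticulum by the escort protein Scap and the Insig proteins while sterols are plentiful. When sterols run low, Scap carries them to the Golgi, the proteases encoded by Mbtps1 and Mbtps2 release their active part, and this part binds sterol regulatory elements in the promoters of the synthesis genes, usually with the factors NF-Y and Sp1. In the brain, cholesterol is made locally, with large amounts used for myelin. Steroid-producing cells of the adrenal gland and gonads use cholesterol as the starting material of their hormones.

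Promoter sequence is shown for the 4 members that passed the test between the groups (Hmgcs1, Ggps1, Lss and Acly) and for Srebf2, a regulator of the pathway whose groups overlapped. Each stretch lies within the 250 bases before the RefSeq transcript start (GRCm38.p6) and is written 5′ to 3′ on the gene's own strand, without bases inside the GENCODE gene model. Capitals mark TCACNCCAC (a sterol regulatory element in its textbook form), CCAAT (bound by NF-Y) and GGGCGG (a GC box, bound by Sp1), read on either strand.
Hmgcs1 (chr13:119690101-119690350, plus strand): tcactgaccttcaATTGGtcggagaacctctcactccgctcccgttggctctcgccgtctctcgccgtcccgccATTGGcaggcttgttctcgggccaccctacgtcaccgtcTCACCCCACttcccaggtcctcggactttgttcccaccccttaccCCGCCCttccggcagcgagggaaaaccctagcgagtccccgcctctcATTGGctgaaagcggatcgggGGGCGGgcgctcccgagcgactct
Ggps1 (chr13:14063489-14063738, minus strand): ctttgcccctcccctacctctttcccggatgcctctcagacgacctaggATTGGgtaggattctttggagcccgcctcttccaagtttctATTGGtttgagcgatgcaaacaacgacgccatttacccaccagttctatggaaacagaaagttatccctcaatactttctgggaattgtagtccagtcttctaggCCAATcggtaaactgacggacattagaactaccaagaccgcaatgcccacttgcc
Lss (chr10:76531355-76531587, plus strand): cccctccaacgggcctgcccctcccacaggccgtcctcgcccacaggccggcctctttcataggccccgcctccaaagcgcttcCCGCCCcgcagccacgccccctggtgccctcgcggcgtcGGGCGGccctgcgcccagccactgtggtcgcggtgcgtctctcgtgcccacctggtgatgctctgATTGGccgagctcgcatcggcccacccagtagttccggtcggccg
Acly (chr11:100528001-100528250, minus strand): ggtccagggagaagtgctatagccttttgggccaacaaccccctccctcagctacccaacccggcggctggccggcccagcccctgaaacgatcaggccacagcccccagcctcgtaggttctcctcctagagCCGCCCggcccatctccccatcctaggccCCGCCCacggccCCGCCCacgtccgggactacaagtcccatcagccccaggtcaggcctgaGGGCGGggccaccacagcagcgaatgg
Srebf2 (chr15:82147019-82147180, plus strand): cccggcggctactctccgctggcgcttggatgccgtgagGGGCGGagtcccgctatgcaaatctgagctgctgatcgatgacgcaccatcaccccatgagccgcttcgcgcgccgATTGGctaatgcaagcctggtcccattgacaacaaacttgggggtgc
Hmgcs1 held all 3 kinds of match, with the element at bases 137 to 129 before the start, CCAAT on the opposite strand at 3 places and GGGCGG at 2. Ggps1 held CCAAT at 3 places and no GGGCGG, Lss held CCAAT at 1 place and GGGCGG at 2, and Acly held GGGCGG at 4 places and no CCAAT. In the stretch shown for Srebf2, CCAAT and GGGCGG were each found at 1 place and TCACNCCAC was not found.

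RefSeq windows were at hand for 24 of the 27 members, all but Fdps, Fdft1 and Sqle. TCACNCCAC was found before 1 of the 24 (Hmgcs1, 4.17%) and before 1.22% of all 27025 genes with a window. The shorter CACNCCAC, which is contained in it, was found before 3 members (Acat2, Hmgcs1 and Insig1, 12.5%) and before 6.05% of all genes. CCAAT was found before 19 of 24 members (79.2%) and 37.5% of all genes, and GGGCGG before 21 of 24 (87.5%) and 35.4%. These are matches of letters over both strands and any listed start of a gene, and not measured binding. All genes with a window were used, without matching them to the members in expression or gene type.

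Depth was 8976745 to 16371244 counts per library. Genes with at least 1 count numbered 7723 to 9924 in WT and 13535 to 14548 in Fyn-KO (exact two-sided permutation p = 0.0286, the smallest that 3 against 4 libraries allow), although WT held more counts. Fyn stood at 720 to 1604 counts per 1000000 counts of the library (CPM) in WT against 74.5 to 190 CPM in Fyn-KO (log2 fold change -3.43 ± 0.51 SE, adjusted p = 0.0121). The groups stood apart in markers of cell types. Of 7 markers of glioma and oligodendrocyte progenitor cells 5 were lower in Fyn-KO, where 3.51% of all genes tested were lower. The summed level of the 7 was 6363 to 10693 CPM in WT against 146 to 766 CPM in Fyn-KO. Sox2 had no count in Fyn-KO replicates 1 and 2. The markers of astrocytes summed to 2278 to 3703 and 62.9 to 187 CPM, and those of mature oligodendrocytes to 2584 to 20119 and 74.9 to 612 CPM. Of 13 markers of steroid-producing cells 11 could be tested, and the sum of all 13 was 209 to 480 CPM in WT against 24729 to 29386 CPM in Fyn-KO. Of these 13, Nr5a1, Cyp17a1, Cyp19a1, Cyp21a1, Cyp11b1, Lhcgr and Mc2r had no count in any WT library, and Mc2r had none in Fyn-KO either. The 5 that passed the test as higher (Nr5a1, Cyp17a1, Cyp19a1, Cyp11b1 and Lhcgr) were among these and entered it through Fyn-KO alone. Over all genes tested 19.0% were higher. DESeq2 called 10 of the 11 higher, where it called 27.2% of all genes higher, and limma-voom called 0. Liver and lung markers summed to 421 to 965 CPM in WT against 0.107 to 7.98 CPM in Fyn-KO, those of neurons to 397 to 512 and 46.6 to 96.1 CPM, those of myeloid cells to 118 to 284 and 134 to 180 CPM, and those of endothelial cells to 0.626 to 737 and 285 to 335 CPM. The part of these differences in the values below was not tested.

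The comparison is of the Fyn-KO with the WT libraries, which also stood apart in the markers above, so that the part of Fyn and that of the cells sorted cannot be told apart. The summed level of the enzymes was higher in Fyn-KO, while that of the regulators overlapped. The 18 enzymes summed to 775, 1703 and 945 CPM in WT libraries against 6640, 6748, 5307 and 6620 CPM in Fyn-KO libraries, which is 1141 ± 494 (mean ± SD, n = 3) against 6329 ± 683 (n = 4) and a ratio of 5.55. The lowest Fyn-KO library lay above the highest WT library, and the libraries with the higher sums were those with the high steroid-cell and low glial markers. The 7 regulators summed to 711, 739 and 466 CPM in WT libraries against 586, 642, 398 and 660 CPM in Fyn-KO libraries, which is 639 ± 150 against 571 ± 120, and the groups overlapped. In sorted bulk samples, a change in the mix of cells and a change in RNA per cell cannot be told apart.

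**Figure D1:**
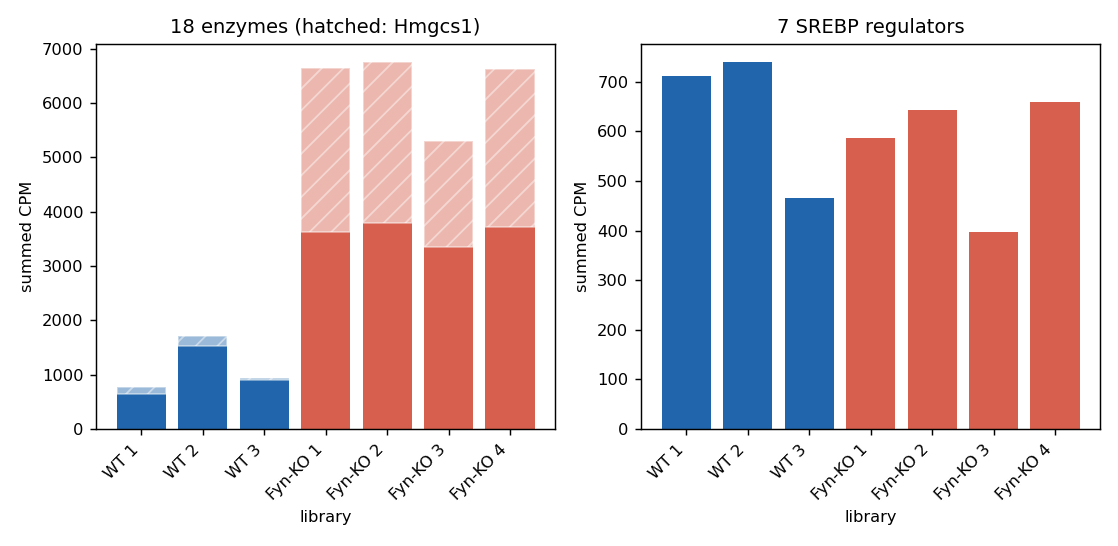
Summed CPM of the 18 enzymes (left, with Hmgcs1 hatched) and of the 7 SREBP regulators (right), 1 bar for each of 3 WT (blue) and 4 Fyn-KO (red) libraries. Enzyme sums were 775 to 1703 CPM in WT against 5307 to 6748 CPM in Fyn-KO, while the regulator sums overlapped.

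Hmgcs1 made up much of the enzyme difference. It took 15.6, 9.98 and 4.69% of the enzyme CPM in the WT libraries and 45.5, 43.7, 36.9 and 43.8% in the Fyn-KO libraries. Without it the other 17 enzymes summed to 1029 ± 453 CPM in WT against 3622 ± 196 CPM in Fyn-KO, with a ratio of 3.52. These libraries also differed in Rn45s, a ribosomal RNA precursor that took 1.41 to 2.92% of the counts in WT and 10.5 to 16.6% in Fyn-KO. With Rn45s left out of the totals, the ratio for all 18 enzymes was 6.17.

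In the test across all 13122 genes that passed a filter on low counts, 4 of the 27 members rose in Fyn-KO and none fell (edgeR quasi-likelihood F test, at an adjusted p of 0.05 after Benjamini and Hochberg). The 4 were Hmgcs1, Acly, Ggps1 and Lss. Ggps1 and Lss reached 10 counts in no WT library and passed the filter through Fyn-KO alone, so their calls could only be upward. The same was true of 2340 of the 2493 genes called higher in all (93.9%). Over all genes tested 19.0% were higher and 3.51% lower, so the members' share of 14.8% higher lay near that of all genes. Unadjusted p was under 0.05 for 7 of 27 members, each with the higher level in Fyn-KO, and for 4379 of all 13122 genes tested. DESeq2 and limma-voom also called 0 members lower. In 12 members every Fyn-KO library lay above every WT library, and in none below, where 30.1% and 7.32% of all genes tested did so. The median log2 fold change was 1.89 over the members, 2.30 over the enzymes and -0.41 over the regulators, against 0.45 over all genes tested. With limma-voom the medians were 3.78 over the members and 2.49 over all genes. Both edgeR medians that include Ggps1 and Lss stay the same with those genes at the lower limits of their ratios, which lie far above the medians. The log2 fold change was above 0 in 21 of 27 members (77.8%), 16 of 18 enzymes and 3 of 7 regulators, and in 57.4% of all genes.

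Among the 6446 genes with at least 10 counts in 2 or more WT and 3 or more Fyn-KO libraries, 20 members remained to be tested. Of these 2 rose (Hmgcs1 and Acly) and 0 fell, where 0.807% of all such genes were higher and 2.16% lower. The median log2 fold change there was 1.37 over the 20 members and -0.20 over all 6446 genes.

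**Figure D2:**
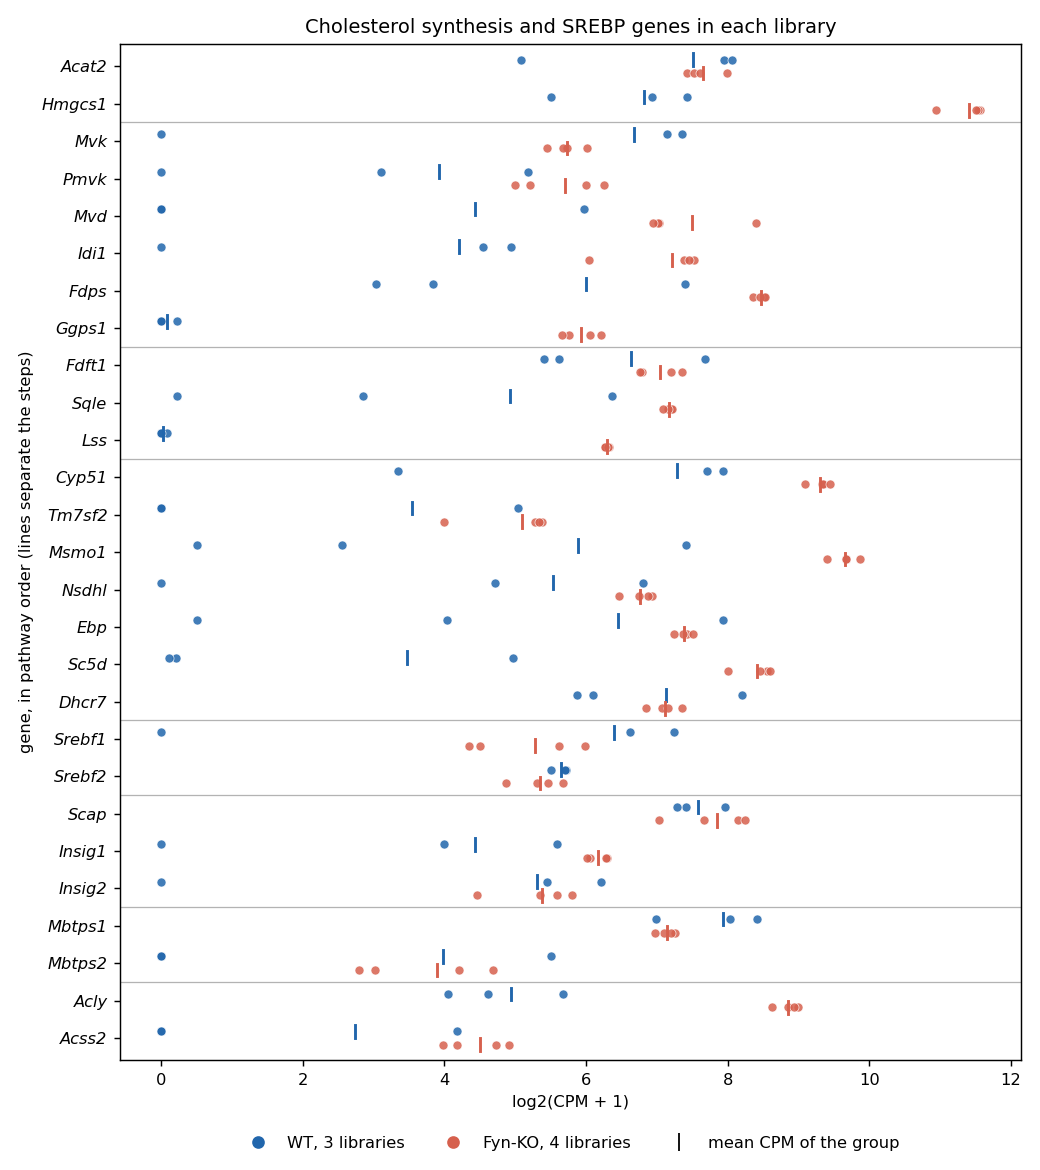
Level of each of the 27 genes as log2(CPM + 1) in 3 WT (blue) and 4 Fyn-KO (red) libraries, in pathway order, with a vertical tick at each group's mean CPM. The Fyn-KO points lie to the right of all WT points in 12 genes, while WT points are scattered, 11, 2 and 6 of the genes having no count in WT replicates 1, 2 and 3.

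The first steps make HMG-CoA from acetyl-CoA. Hmgcs1 (GRCm38 chromosome 13, 119690379 to 119708260, plus strand), the cytosolic HMG-CoA synthase, stood at 121, 170.0 and 44.3 CPM in WT libraries against 3018, 2952, 1959 and 2899 CPM in Fyn-KO libraries. Every Fyn-KO library exceeded the highest WT library by a wide margin, with replicate 3 the lowest of its group. The means were 112 ± 63.4 and 2707 ± 501 CPM, a ratio of 24.2, and the log2 fold change was 4.64 ± 0.37 (adjusted p = 0.00212). Of the 27 members it was the most abundant in Fyn-KO. Acat2, the cytosolic thiolase that joins the first acetyl-CoA units, stood at 32.8, 246 and 266 CPM in WT libraries against 170.1, 183, 253 and 194 CPM in Fyn-KO libraries. Its groups overlapped, WT replicate 1 being the lowest library of all (log2 fold change 0.02 ± 0.72, adjusted p = 0.989). The near-identical neighbour Acat3 can share tags with Acat2, and the ratio of Acat2 to Acat3 CPM was 1.86 to 2.62 in WT and 1.52 to 2.44 in Fyn-KO.

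Mevalonate is phosphorylated and decarboxylated by the kinases Mvk and Pmvk and by the decarboxylase Mvd. Mvk stood at 0, 141 and 162 CPM in WT libraries against 52.2, 63.3, 50.1 and 42.7 CPM in Fyn-KO libraries. Pmvk stood at 7.59, 35.1 and 0 CPM in WT libraries against 35.8, 62.8, 74.9 and 31.0 CPM in Fyn-KO libraries. Both groups overlapped in each kinase, since a WT library held no count of it while another reached or passed the Fyn-KO range (adjusted p of 0.742 for Mvk and 0.511 for Pmvk). Mvd stood at 0, 61.8 and 0 CPM in WT libraries against 129, 128, 336 and 123 CPM in Fyn-KO libraries. The groups of Mvd were separate, yet its log2 fold change of 3.42 ± 2.25 did not pass the test (adjusted p = 0.371). All of its WT counts were in replicate 2, and Fyn-KO replicate 3 was far above the other Fyn-KO libraries.

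The next enzymes make and join the isoprenoid units. Idi1, the isomerase of isopentenyl diphosphate, stood at 0, 22.4 and 29.8 CPM in WT libraries against 166, 182, 64.6 and 175 CPM in Fyn-KO libraries. Fdps, which makes farnesyl diphosphate, stood at 7.20, 167 and 13.3 CPM in WT libraries against 365, 326, 349 and 368 CPM in Fyn-KO libraries. Both genes were higher in every Fyn-KO library than in any WT library without passing the test (log2 fold changes of 2.89 ± 1.66, adjusted p = 0.294, and 2.69 ± 0.98, adjusted p = 0.0848).

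Ggps1 (chromosome 13, 14050659 to 14063488, minus strand) makes geranylgeranyl diphosphate, the lipid attached to many small GTPases, and lies on a branch away from sterols. It held no count in WT replicates 1 and 2, 2 counts in WT replicate 3, and 72.8, 52.9, 49.5 and 65.5 CPM in Fyn-KO. Its transcript was thus at the limit of detection in all WT libraries and at a like level in all Fyn-KO libraries. The ratio of pooled counts was 1231, with a 95% exact interval of 340.5 to 10174 that covers counting error only (adjusted p = 0.0124).

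Squalene synthase, encoded by Fdft1, makes the first intermediate committed to sterols. It stood at 48.0, 205 and 41.3 CPM in WT libraries against 109.9, 146, 107 and 163 CPM in Fyn-KO libraries, and the groups overlapped (log2 fold change 0.52 ± 0.65, adjusted p = 0.684). Sqle, the squalene epoxidase, stood at 6.18, 81.7 and 0.168 CPM in WT libraries against 146, 147, 142 and 135 CPM in Fyn-KO libraries. Its Fyn-KO libraries were within a narrow band above every WT library, and its WT libraries differed widely from each other. It did not pass the test (log2 fold change 2.53 ± 1.46, adjusted p = 0.299).

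Lss (chromosome 10, 76531588 to 76557138, plus strand) encodes lanosterol synthase, which closes the 4 rings of the sterol. It held 1 count in WT, in replicate 2, and 78.7, 76.3, 78.4 and 75.6 CPM in Fyn-KO (77.3 ± 1.53). No member varied less between the Fyn-KO libraries. The ratio of pooled counts was 3171, with a 95% exact interval of 569 to 125308 that covers counting error only (adjusted p = 0.0121).

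From lanosterol to cholesterol, 0 of 7 enzymes passed the edgeR test, where 19.0% of all genes tested were higher. An unadjusted p under 0.05 was found for 2 of the 7, and for 4379 of all 13122 genes tested. DESeq2 called 2 higher, against 27.2% of all genes, and limma-voom called 0. In 3 of the 7, every Fyn-KO library lay above every WT library, as in 30.1% of all genes tested. Cyp51, the demethylase of lanosterol, stood at 9.16, 245 and 209 CPM in WT libraries against 641, 648, 547 and 697 CPM in Fyn-KO libraries (log2 fold change 1.95 ± 0.90, adjusted p = 0.179). Msmo1, the sterol methyl oxidase, stood at 4.85, 169 and 0.420 CPM in WT libraries against 817, 932, 674 and 811 CPM in Fyn-KO libraries (4.06 ± 1.56, adjusted p = 0.103). Sc5d, the sterol desaturase, stood at 0.157, 30.2 and 0.0839 CPM in WT libraries against 373, 384, 255 and 351 CPM in Fyn-KO libraries (5.32 ± 1.84, adjusted p = 0.0701). For Msmo1 and Sc5d nearly all WT counts were in replicate 2. The ratios of mean CPM were 4.11 for Cyp51, 13.9 for Msmo1 and 33.6 for Sc5d.

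The other enzymes of this stretch overlapped between the groups. Tm7sf2, a sterol reductase, stood at 0, 31.9 and 0 CPM in WT libraries against 37.8, 40.6, 14.9 and 39.5 CPM in Fyn-KO libraries. Nsdhl, a sterol dehydrogenase, stood at 0, 25.2 and 111 CPM in WT libraries against 121, 117, 87.3 and 106 CPM in Fyn-KO libraries. In both, the highest WT library reached the Fyn-KO range while another held no count. Ebp, the sterol isomerase, stood at 245, 15.5 and 0.420 CPM in WT libraries against 171, 164, 151 and 180.5 CPM in Fyn-KO libraries. Dhcr7, a reductase of the last step, stood at 294, 57.5 and 67.3 CPM in WT libraries against 134, 142, 114 and 163 CPM in Fyn-KO libraries. WT replicate 1 was the highest of all libraries in these, and their means differed by less than the spread in WT (86.8 ± 137 against 167 ± 12.6 CPM for Ebp and 139.5 ± 134 against 138 ± 20.1 CPM for Dhcr7). Adjusted p was 0.667 for Tm7sf2, 0.793 for Nsdhl, 0.750 for Ebp and 0.961 for Dhcr7.

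Of the SREBP transcription factors, Srebf2 is the main activator of cholesterol genes and Srebf1 has a stronger part in fatty acid synthesis. Srebf2 (chromosome 15, 82147181 to 82205379, plus strand) stood at 51.7, 44.5 and 50.9 CPM in WT libraries against 42.9, 38.4, 28.1 and 50.1 CPM in Fyn-KO libraries. Its WT libraries lay within a narrow range that overlapped the Fyn-KO libraries, and the means of 49.0 ± 3.91 and 39.9 ± 9.21 CPM did not pass the test (log2 fold change -0.41 ± 0.80, adjusted p = 0.809). Srebf1 stood at 151, 97.5 and 0 CPM in WT libraries against 48.1, 62.3, 21.6 and 19.3 CPM in Fyn-KO libraries (-1.06 ± 1.69, adjusted p = 0.759). The groups of Srebf1 overlapped, with 1 WT library holding no count, and the tags cannot separate its isoforms. The ratio of Hmgcs1 to Srebf2 CPM within a library was 2.35, 3.82 and 0.871 in the WT libraries against 70.3, 76.9, 69.6 and 57.8 in the Fyn-KO libraries. Every Fyn-KO ratio exceeded every WT ratio. This follows from the Hmgcs1 values given above, since Srebf2 varied far less between libraries, and is no further result.

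Scap, Insig1 and Insig2 encode the escort and its anchors. Scap stood at 249, 169 and 155 CPM in WT libraries against 201, 282, 130.1 and 301 CPM in Fyn-KO libraries. Insig2 stood at 0, 73.1 and 42.7 CPM in WT libraries against 47.1, 39.9, 21.0 and 54.5 CPM in Fyn-KO libraries. Both overlapped between the groups (log2 fold changes of 0.18 ± 0.45 and 0.03 ± 1.69, adjusted p of 0.862 and 0.994). Insig1, itself a textbook target of SREBP, stood at 0, 14.9 and 46.9 CPM in WT libraries against 77.7, 77.0, 65.5 and 63.3 CPM in Fyn-KO libraries. It was the single regulator of the 7 in which every Fyn-KO library lay above every WT library, as in 30.1% of all genes tested. It did not pass the test (1.495 ± 1.72, adjusted p = 0.654).

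The proteases showed no separation. Mbtps1, which makes the first cut, stood at 260.3, 340.3 and 126 CPM in WT libraries against 152, 136, 124 and 146 CPM in Fyn-KO libraries (log2 fold change -0.77 ± 0.41, adjusted p = 0.255). Without WT replicate 3, the lowest of its WT libraries, Mbtps1 passed the test as lower (log2 fold change -0.97, adjusted p = 0.0389), where 5.08% of all genes tested were lower. Mbtps2, which makes the second cut, stood at 0, 0 and 44.3 CPM in WT libraries against 17.5, 5.96, 7.11 and 24.8 CPM in Fyn-KO libraries (-0.54 ± 2.30, adjusted p = 0.921). Its WT counts were all in replicate 3, and its direction turned when that library was left out, where the remaining WT libraries held no count.

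Acetyl-CoA for the pathway comes from citrate through Acly and from acetate through Acss2. Acly (chromosome 11, 100476353 to 100528000, minus strand) stood at 15.5, 50.03 and 23.4 CPM in WT libraries against 510.1, 459, 392 and 487 CPM in Fyn-KO libraries. All Fyn-KO libraries lay far above all WT libraries. The means were 29.6 ± 18.1 and 462 ± 51.1 CPM, a ratio of 15.6, and the log2 fold change was 3.96 ± 0.49 (adjusted p = 0.0118). Acss2, the acetyl-CoA synthetase, stood at 0, 17.04 and 0 CPM in WT libraries against 25.6, 29.1, 17.1 and 14.8 CPM in Fyn-KO libraries, and its groups overlapped (2.19 ± 2.18, adjusted p = 0.590).

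The calls on Hmgcs1 and Acly held when any 1 of the 7 libraries was left out, while calls on other members depended on single WT libraries. Those on Ggps1 and Lss held too, but WT then still had 2 counts or fewer, so this says nothing of their stability. Without WT replicate 1, 7 members rose, Cyp51, Ebp and Idi1 being added, where 19.9% of all genes did. Without WT replicate 2, 11 members rose, with Acss2, Fdps, Msmo1, Mvd, Sc5d, Sqle and Tm7sf2 added, where 32.8% of all genes did, and the medians of the members and of all genes came to 2.12 and 1.91. Of those added, Acss2, Mvd and Tm7sf2 then had no WT count left, and Sc5d had 2 counts in WT replicate 1 and 1 in replicate 3. These genes then entered the test through Fyn-KO alone, so their calls could only be upward. Without WT replicate 3, 5 rose, with Mbtps2 added, which then had no WT count left, where 22.1% of all genes did. DESeq2 on all libraries called 7, with Fdps, Msmo1 and Sc5d added, where it called 27.2% of all genes higher. limma-voom with quality weights called 0 members in either direction, and 24 genes higher and 320 lower in all genes.

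**Figure D3:**
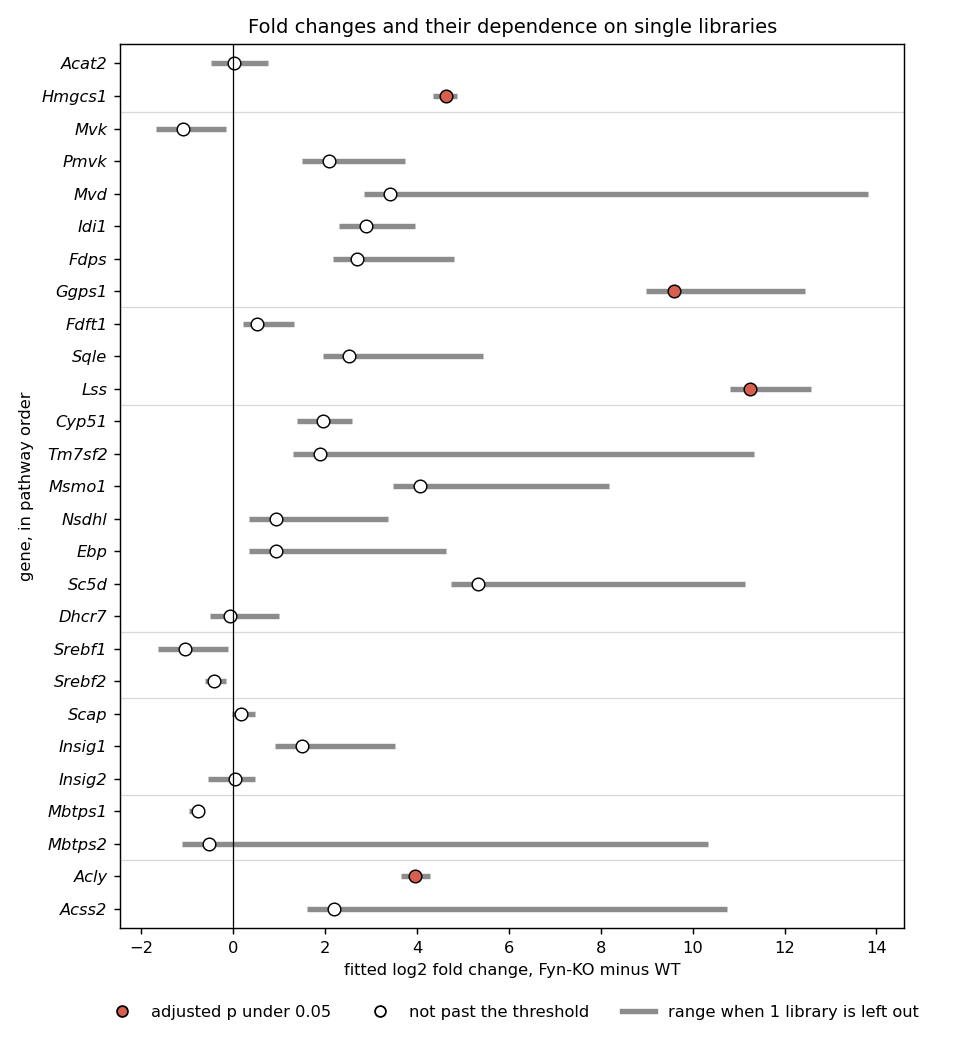
Fitted log2 fold change (Fyn-KO minus WT) of each gene in pathway order, filled where the adjusted p was under 0.05, with a grey bar for the range of values when each of the 7 libraries was left out in turn. The bars of Hmgcs1 (4.35 to 4.87) and Acly (3.66 to 4.28) are short, those of Mvd, Tm7sf2, Mbtps2 and Acss2 are long, and fitted values of genes with almost no WT count, such as Ggps1 and Lss, depend on the fit and are not measured sizes.

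The members were unevenly detected in WT. Of 27, WT replicates 1, 2 and 3 held 10 or more counts for 15, 24 and 16, and each Fyn-KO library for all 27. Of the 13 members that reached 100 CPM in a WT library, 5 (Mvk, Msmo1, Nsdhl, Ebp and Srebf1) stood under 1 CPM in another WT library, a share of 38.5% against 41.5% over all genes. In Fyn-KO, 0 of 16 members and 0.0396% of all genes did so. This scatter was thus general in the WT libraries, and its part in the differences above was not tested.

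The standard deviation of log2(CPM + 1) had a median over members of 2.60 across WT libraries and of 0.256 across Fyn-KO libraries, and it was larger in WT for 24 of 27 (88.9%). Over all genes tested the medians were 1.88 and 0.494, and it was larger in WT for 72%. The exceptions were Ggps1, which was near 0 in WT, and the regulators Srebf2 and Scap. Within WT, replicate 2 was the highest library for 15 members (55.6%, against 35.3% of all genes). Within Fyn-KO, replicate 3 was the lowest for 16 (59.3%, against 36.3%).

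**Figure D4:**
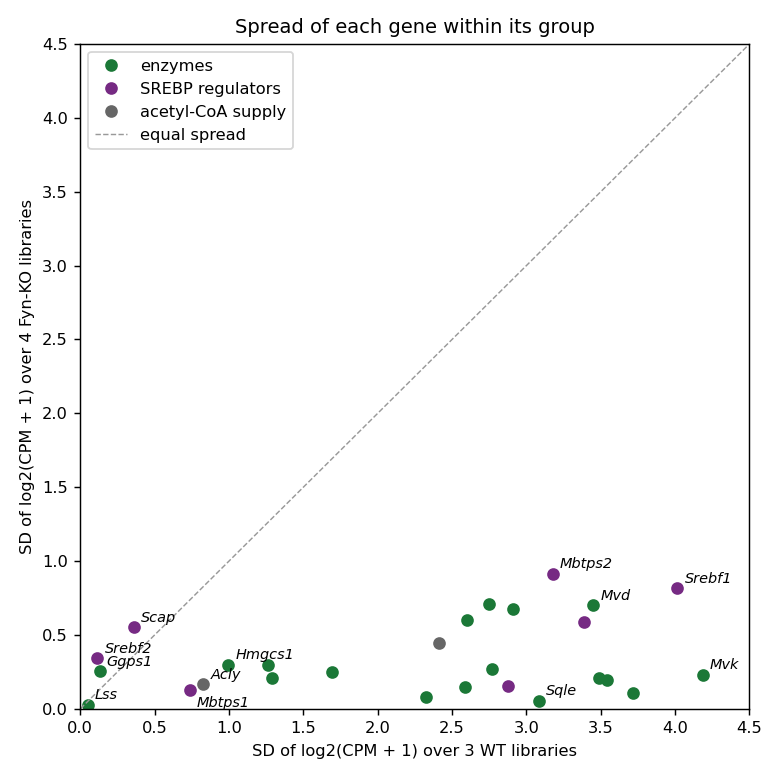
Standard deviation of log2(CPM + 1) of each of the 27 genes over 3 WT libraries (horizontal) and 4 Fyn-KO libraries (vertical), coloured by role, with a dashed line of equal spread. All genes but Ggps1, Srebf2 and Scap lie under the line, with medians of 2.60 in WT and 0.256 in Fyn-KO.

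Of 51 genes around the pathway, in 5 other lists, 48 could be tested, and 12 rose (25.0%, against 19.0% of all genes tested) and 2 fell (4.17%, against 3.51%). Of the 12, 9 reached 10 counts in no WT library and entered the test through Fyn-KO alone. In the list of parallel sterol steps and electron donors, 0 of 7 tested passed the edgeR test in either direction, and Idi2 had no count in any library. Of the 7, 2 had an unadjusted p under 0.05, against 4379 of all 13122 genes tested. DESeq2 called 1 higher, against 27.2% of all genes, and limma-voom called 0. The most abundant genes of this list were Hsd17b7 and Cyb5r3. Hsd17b7, a keto-reductase that acts beside Nsdhl, stood at 106, 116 and 0.0839 CPM in WT libraries against 1067, 1142, 592 and 1145 CPM in Fyn-KO libraries (log2 fold change 3.85 ± 1.48, adjusted p = 0.103). Its groups were separate, with WT replicate 3 at 1 count. Cyb5r3, a cytochrome b5 reductase, stood at 420.1, 277 and 442 CPM in WT libraries against 317, 310.5, 193 and 250.2 CPM in Fyn-KO libraries, and its groups overlapped (-0.65 ± 0.41, adjusted p = 0.354).

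The mitochondrial enzymes of ketone bodies share substrates with the first cytosolic steps, and 0 of 6 passed the edgeR test in either direction. Of the 6, 2 had an unadjusted p under 0.05, against 4379 of all 13122 genes tested. DESeq2 called 1 higher and 1 lower, against 3564 and 918 of all genes tested, and limma-voom called 0. Acat1, the mitochondrial thiolase, stood at 625, 435 and 231 CPM in WT libraries against 178, 183, 64.5 and 175 CPM in Fyn-KO libraries. Its groups were separate and it just missed the threshold (log2 fold change -1.55 ± 0.48, adjusted p = 0.0522), whereas the cytosolic Acat2 stood at about equal means in both groups. Oxct1, which activates ketone bodies for use, stood at 484, 255 and 333 CPM in WT libraries against 229, 249, 291 and 203 CPM in Fyn-KO libraries (-0.65 ± 0.41, adjusted p = 0.353).

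Of 11 tested genes of the isoprenoid branches, 2 rose (18.2%, against 19.0% of all genes tested) and 1 fell (9.09%, against 3.51%). limma-voom called 0 higher and 1 lower, against 24 and 320 of all 13122 genes tested. DESeq2 called 3 higher and 2 lower, against 3564 and 918 of all genes tested. The 2 that rose, Pggt1b and Icmt, reached 10 counts in no WT library and entered the test through Fyn-KO alone. Pggt1b, the beta subunit of an enzyme that adds geranylgeranyl groups to proteins, was uncounted in WT, with 5.01, 16.9, 10.9 and 7.91 CPM in the Fyn-KO libraries, or at least 45.7-fold higher against a floor of 3 counts per WT library (adjusted p = 0.0121). Icmt, which methylates prenylated proteins, had 2 counts in WT, with 13.2, 18.7, 10.9 and 28.5 CPM in the Fyn-KO libraries, a ratio of pooled counts of 365 with a 95% exact interval of 101 to 3021 (adjusted p = 0.0225). Fnta, the alpha subunit of that enzyme and of the farnesyl transferase, fell. It stood at 198, 462 and 545 CPM in WT libraries against 94.1, 116, 46.7 and 106 CPM in Fyn-KO libraries (log2 fold change -2.29 ± 0.55, adjusted p = 0.0178). The calls ended for Fnta without Fyn-KO replicate 1 (adjusted p = 0.0506) and for Icmt without Fyn-KO replicate 1 (0.0540) or 2 (0.0538).

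Genes of fatty acid synthesis, which SREBP also drives, gave 7 higher (50%) and 1 lower (7.14%) of 14 tested, against 19.0% and 3.51% of all genes. DESeq2 called 8 higher and 1 lower, against 3564 and 918 of all 13122 genes tested, and limma-voom 0 in either direction. Fasn, the fatty acid synthase, fell from 607, 408 and 560.0 CPM in WT to 195, 179, 194 and 189 CPM in Fyn-KO (log2 fold change -1.58 ± 0.37, adjusted p = 0.0158). The elongase Elovl5 rose from 219, 287 and 127 CPM to 824, 906, 436 and 973 CPM (1.88 ± 0.35, adjusted p = 0.0121). The desaturase Fads1 rose from 43.9, 219 and 57.9 CPM to 456, 371, 298 and 395 CPM (1.90 ± 0.55, adjusted p = 0.0404). The synthase thus moved in the opposite direction to the elongase and the desaturase. The elongase Elovl6 rose from 53.7, 89.6 and 61.9 CPM to 204, 234, 191 and 196 CPM (1.54 ± 0.47, adjusted p = 0.0499). Calls ended when any 1 Fyn-KO library was left out for Elovl6 (adjusted p of 0.0676 to 0.166) and, with WT replicate 3 as well, for Fads1 (0.0695 to 0.109), and for Fasn without Fyn-KO replicate 2 (0.0521). Elovl5 passed with each library left out (at most 0.0272).

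The other 4 that rose were nearly uncounted in WT. Aacs, which activates acetoacetate for lipid synthesis, was uncounted in WT, with 24.3, 29.1, 9.96 and 27.5 CPM in the Fyn-KO libraries, or at least 102-fold higher against the floor (adjusted p = 0.0121). Gpam, an acyltransferase of glycerolipid synthesis, had 2 counts in WT, with 17.3 to 28.8 CPM in the Fyn-KO libraries (ratio 485, 95% exact interval 134 to 4010, adjusted p = 0.0197). Thrsp, a lipogenic protein, had 1 count and 7.35 to 15.9 CPM (ratio 455, interval 81.2 to 18017, adjusted p = 0.0129). Acacb, an acetyl-CoA carboxylase, had 6 counts and 6.46 to 13.96 CPM (adjusted p = 0.0186). The call on Gpam ended without Fyn-KO replicate 1 (0.0541) or 2 (0.0542). With 10 counts required in 2 or more WT libraries these 4 could not be tested, and they had entered the test through Fyn-KO alone.

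Of 10 tested genes of SREBP turnover, sterol sensing and LXR, 3 rose (30%, against 19.0% of all genes tested) and 0 fell. DESeq2 called 3 higher, against 27.2% of all genes tested, limma-voom called 0, and both called 0 lower. The 3 that rose were the only ones at an unadjusted p under 0.05, against 4379 of all 13122 genes tested. Paqr3 had no count in any library. Stard4, a cytosolic sterol carrier and known SREBP target, stood at 0, 0 and 0.420 CPM in WT libraries against 67.8, 58.0, 58.2 and 49.8 CPM in Fyn-KO libraries (adjusted p = 0.0261, and 0.0606 to 0.0736 when any 1 Fyn-KO library was left out). Erlin1, a protein of the endoplasmic reticulum that takes part in the breakdown of sterol-regulated enzymes, was uncounted in WT, with 9.59, 5.002, 7.77 and 8.02 CPM in the Fyn-KO libraries, or at least 34.0-fold higher against the floor (adjusted p = 0.0121). Nr1h3, the oxysterol receptor LXR alpha, had 1 count in WT, with 20.6, 19.8, 1.31 and 16.5 CPM in the Fyn-KO libraries (ratio of pooled counts 606, 95% exact interval 108 to 23966, adjusted p = 0.0189). All 3 were at or near the limit of detection in WT and reached 10 counts in no WT library, so they entered the test through Fyn-KO alone and could not be tested with 10 counts required in 2 or more WT libraries. Nr1h3 was low in Fyn-KO replicate 3.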

How the data were processed

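Tags were measured in 7 libraries. The authors deposited 1 table of whole-number counts per gene and library, whose name calls it modified; how it was modified is unknown here. Per the submitters' processing notes, Bowtie2, bedtools, DESeq2 1.32.0 and mm10 (GRCm38) were used; for the annotation and the counting strand no source used here gives an entry. Of the 23282 entries, 46 repeat an earlier symbol and were kept apart. Columns were joined to samples by the labels, with 0 columns unused. For WT replicate 3, 1 WT sample's description and another WT sample's title both match the column, so it was assigned to the WT group alone.

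CPM values are counts divided by the library total, times 1000000. Genes were filtered with filterByExpr (at least 10 counts in enough libraries, 15 in all) and tested with the quasi-likelihood F test of edgeR 4.0.16 in R 4.3.3 with TMM factors over all 7 libraries (two-sided; threshold 0.05 on p adjusted by Benjamini-Hochberg over 13122 genes). Each log2 fold change is Fyn-KO minus WT with an approximate SE (its size over the root of F). The fit was also run on simulated data with seeded changes of a fixed size, smaller than those fitted for Hmgcs1 and Acly, and the same spread in both groups. It recovered these changes where the spread was small, but passed none of them at the spread of these libraries. A gene that missed the threshold is thus not shown to be unchanged. P-values measure the spread among 3 and 4 libraries, each from its own mouse per the labels. The fit gave both groups 1 shared spread per gene, although the SD of log2(CPM + 1) was larger in WT for 72% of all genes tested. Ratios with 1 to 3 WT counts have 95% exact intervals, and ratios with none use a floor of 3 counts per library; both cover counting error only, and tags carry no molecular identifiers.

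Alternatives were RLE factors, library totals, no filter, 10 counts in both groups, DESeq2 1.42.0, limma-voom (limma 3.58.1), the replicate block, Rn45s left out, and each library left out. Replicate numbers do not pair the libraries (correlations of deviations of same-numbered libraries -0.01, -0.00016 and -0.02). The members, lists, motifs and markers were chosen with earlier results of these data known. All 27 members are named; of other lists, those past the threshold, otherwise the 2 of highest mean CPM, with Idi2 and Paqr3 added as uncounted. Coordinates are from GENCODE M21 (GRCm38).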

Additional observations from a re-analysis of the deposited data

Results flagged for a closer look

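Of 82 measures checked in Fyn-KO, 10 had 1 library far from the other 3 at the 95% critical value of Dixon's ratio. Chance alone marks about 1 in 20 such groups. The measures are not independent, so their number cannot be set against that rate. The enzyme sum contains flagged members, and all CPM of a library share its total. Fyn-KO replicate 3 was the separate library in 9 of them. It was low in Hmgcs1 (1959 CPM against 2899 to 3018), Idi1 (64.6 against 166 to 182), Tm7sf2 (14.9 against 37.8 to 40.6), Hsd17b7 (592 against 1067 to 1145) and Acat1 (64.5 against 175 to 183), and in the sum of the 18 enzymes (5307 against 6620 to 6748 CPM). It was high in Mvd (336 against 123 to 129 CPM). Beside these, its share of Rn45s was 16.6% of counts against 10.5 to 10.98%, and its share of Malat1 was 2.03% against 2.35 to 2.41%. Sums of cell markers were not among the measures checked. In this library those of glioma and oligodendrocyte progenitor cells (766 against 146 to 375 CPM), mature oligodendrocytes (612 against 74.9 to 351) and astrocytes (187 against 62.9 to 117) were the highest of the group. That of steroid-producing cells was the lowest (24729 against 28072 to 29386 CPM). The part of all these values in the differences was not tested. Fyn-KO replicate 4 was high in Coq2, a gene of ubiquinone synthesis (44.1 against 30.2 to 32.2 CPM).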

How the results depend on the processing

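Counts of calls moved more than directions did. Genes higher among all tested, 2493 in the test as reported, numbered 52 where 10 counts were required in both groups, 24 with limma-voom, 188 with the replicate block, and 2190 to 4585 with 1 library left out. Genes lower, 461 as reported, numbered 139, 320, 135 and 247 to 839 under the same settings and 918 with DESeq2. Members higher, 4 as reported, numbered 2 with counts required in both groups, 7 with DESeq2, 0 with limma-voom, 7 with the replicate block (Ggps1 and Lss were lost) and 4 to 11 with 1 library left out; members lower were 0 to 1. Hmgcs1, Acly, Ggps1 and Lss remained under RLE factors, library totals alone, no filter and Rn45s left out. Scaling moved the median of all genes from 0.45 to 0.43 (RLE) and 0.44 (totals). With the replicate block it was 3.45 against 3.65 over the members, and with limma-voom 2.49 against 3.78. Of 398 member values under 15 alternatives, 353 kept direction and side of the threshold, and 20 turned direction, in 7 members none of which had passed the test. On the log2 scale these were Acat2 (-0.0072 with no filter, -0.48 to 0.77 with 1 library left out, negative without WT replicate 1 and, at -0.026, Fyn-KO replicate 3), Mvk (1.18 with limma-voom, 0.17 with the block), Dhcr7 (0.30 with counts in both groups, 0.81 with limma-voom, 0.28 with the block, -0.50 to 0.99 with 1 library left out, positive without WT replicate 1 and, at 0.11, Fyn-KO replicate 3), Srebf1 (1.90 with limma-voom, 0.58 with the block), Scap (-0.032 to 0.48, negative without WT replicate 2), Insig2 (-0.00039 with no filter, -0.56 to 0.48 with 1 library left out, negative without WT replicate 1 and, at -0.036 and -0.14, Fyn-KO replicates 1 and 4) and Mbtps2 (6.95 with limma-voom, 7.21 with the block, -1.12 to 10.32 with 1 library left out, positive without WT replicate 3). Leaving out libraries or requiring counts changes the genes and samples tested; otherwise the cause was not tested. Each alternative named above was run. Members with no count in WT are not shown to be absent there, since 3 counts in a WT library correspond to 0.223 CPM on average and detection in WT was uneven.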
